A study of Homo sapiens with 2 samples.

Results

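The hepatocyte lineage transcription factors described here are HNF4A, FOXA1, FOXA2, FOXA3, ONECUT1, CEBPA, PROX1 and NR5A2, a set of 8 genes listed by name among the 26228 gene names that both deposited tables hold. Each had a single row in each table, and none belonged to a locus joined with another gene. The study sequenced RNA from PLC, an established human liver cancer cell line grown in DMEM. EV cells, of genotype WT in the labels, carried the empty lentiviral vector pCDH, and PRSS35 cells overexpressed the human PRSS35 coding sequence from it, without any further treatment. By the study's methods, stable cells were selected with puromycin. There was 1 library of each, so differences between them could not be set against the spread between cultures and no test was possible. Values are FPKM, fragments per kilobase of transcript scaled to the mapped fragments of the library, as the authors estimated them, and the numbers in parentheses after an FPKM are the lower and upper bound deposited with it. The bounds reflect the precision of the estimate inside 1 library, not the variation between cultures.

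Hepatocyte identity is kept by a small circuit of DNA-binding proteins that control one another as well as the liver genes. HNF4A is a nuclear receptor needed for the secretory and metabolic program of the mature hepatocyte, and the FOXA proteins are forkhead pioneer factors that open closed chromatin at liver enhancers. ONECUT1 (HNF6) and PROX1 are homeodomain proteins of the early liver, CEBPA is a leucine zipper factor of the quiescent, metabolically active hepatocyte, and NR5A2 (LRH-1) is a nuclear receptor known for its part in bile acid and cholesterol genes.

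The binding letters of these factors were searched, on both strands, in the 250 bases before the RefSeq starts of the factors themselves (GRCh38.p14). The table held 8 windows for HNF4A, FOXA1, FOXA3, ONECUT1, CEBPA and NR5A2, and FOXA2 and PROX1 were not analysed here. The ONECUT letters ATCAAT were found in 2 of the 8 windows, the FOXA letters TGTTTAC in 1 and the HNF4 letters CAAAGTCC in 1, while the CEBP letters TTGCNNAA and the NR5A letters CAAGGTCA were found in 0. Of all 35116 windows of this length, 5.58% hold ATCAAT, 2.98% TGTTTAC, 1.02% CAAAGTCC, 9.05% TTGCNNAA and 1.14% CAAGGTCA. The 3 windows with a match are printed 5′ to 3′ with the matched letters in capitals, because they place the letters of one factor before the start of another. The upstream HNF4A window, chr20:44355449-44355698 on the plus strand, holds ATCAAT from 33 to 28 bases before the start. In the downstream HNF4A window, chr20:44400989-44401238 on the plus strand, the reverse complement of ATCAAT lies from 200 to 195 bases before the start. The NR5A2 window, chr1:200042341-200042590 on the plus strand, holds the reverse complements of CAAAGTCC from 148 to 141 bases and of TGTTTAC from 105 to 99 bases before the start.
HNF4A upstream start: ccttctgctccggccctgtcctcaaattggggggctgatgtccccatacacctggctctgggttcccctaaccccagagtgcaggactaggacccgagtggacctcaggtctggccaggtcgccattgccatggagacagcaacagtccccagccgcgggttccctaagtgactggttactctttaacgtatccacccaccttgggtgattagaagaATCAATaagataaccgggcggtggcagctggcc
HNF4A downstream start: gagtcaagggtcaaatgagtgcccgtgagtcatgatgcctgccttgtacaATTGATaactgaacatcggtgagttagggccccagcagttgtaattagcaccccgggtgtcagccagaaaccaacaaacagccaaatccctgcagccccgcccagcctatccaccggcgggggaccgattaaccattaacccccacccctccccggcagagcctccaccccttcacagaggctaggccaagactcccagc
NR5A2 start: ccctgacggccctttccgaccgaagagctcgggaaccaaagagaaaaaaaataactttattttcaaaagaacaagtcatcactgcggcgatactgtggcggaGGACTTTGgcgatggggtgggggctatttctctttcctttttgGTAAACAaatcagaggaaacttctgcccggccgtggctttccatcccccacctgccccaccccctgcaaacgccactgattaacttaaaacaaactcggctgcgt

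A match of letters describes the sequence and is not a measured site. The window before the PRSS35 start held none of the 5 motifs, in a search of exact letters in 250 bases only. The study itself predicted HNF4A response elements in the PRSS35 promoter and reported from luciferase assays that they contribute to its transcription. It also reported that PRSS35 fell with HNF4A knockdown in HepG2 cells and rose with HNF4A overexpression.

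PRSS35 itself, the check of the labels, had 0.643 FPKM in EV (0.445 to 0.841) and 1836 in PRSS35 (1759 to 1912). Of the 17 hepatocyte markers, 15 had a mean of 1 FPKM or more over the libraries, which is called expressed throughout. Biliary markers summed to 74.3 FPKM in EV and 82.3 in PRSS35, with 5 of 7 expressed, 2 higher in PRSS35 with separate bounds (EPCAM, 44.9 and 51.0 FPKM, and SOX9), 0 lower and a median log2 change of 0.18. Of all 11118 expressed genes, 25.1% were higher and 15.5% lower with separate bounds, and their median was 0.06. KRT7 and KRT19 had overlapping bounds, SPP1 was near 0 and CFTR was listed at 0 in both libraries. Stromal markers summed to 1.78 and 2.08 FPKM, with only PDGFRB of 6 expressed, above COL1A1, DES and COL1A2, and the 4 endothelial markers PECAM1, VWF, CDH5 and KDR to 0.0373 and 0.0307. Of the 5 immune markers, PTPRC and CD3E were listed at 0 in both libraries, CD14 was at 0 and 0.234 FPKM, and the 297.3 and 277.9 FPKM of CD68 belong to a locus joined with MPDU1. The part of these other markers in the values of the factors was not tested.

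CEBPA was the most abundant of the 8 factors, with 95.7 FPKM in EV (91.1 to 100.2) and 107.3 in PRSS35 (102.3 to 112.4). FOXA2 followed, with 54.9 FPKM in EV (52.2 to 57.6) and 63.3 in PRSS35 (60.3 to 66.4). Both were higher in PRSS35, and the bounds of the libraries did not overlap.

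FOXA3, known for its part in glucose metabolism of the adult liver, had 49.7 FPKM in EV (46.9 to 52.5) and 44.1 in PRSS35 (42.3 to 45.9). It was the one factor of the 8 with a lower value in PRSS35, also with separate bounds. HNF4A had 41.2 FPKM in EV (39.6 to 42.8) and 47.7 in PRSS35 (45.9 to 49.6). Here too the bounds were apart, and the PRSS35 library was the higher one.

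ONECUT1 had 20.0 FPKM in EV (18.9 to 21.0) and 20.5 in PRSS35 (19.3 to 21.6). FOXA1, the least abundant FOXA gene, had 6.08 FPKM in EV (5.52 to 6.65) and 6.16 in PRSS35 (5.65 to 6.66). For both genes the bounds of the libraries overlapped.

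NR5A2 had 2.09 FPKM in EV (1.85 to 2.34) and 2.30 in PRSS35 (2.04 to 2.55), again with overlap. PROX1 was the lowest factor, with 1.86 FPKM in EV (1.67 to 2.04) and 1.87 in PRSS35 (1.68 to 2.05). Its bounds correspond to about 391.0 fragments in EV and 393.5 in PRSS35, and they lay almost on top of each other. In a bulk library, fewer cells that express a gene and less RNA of it per cell cannot be told apart.

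**Figure D1:**
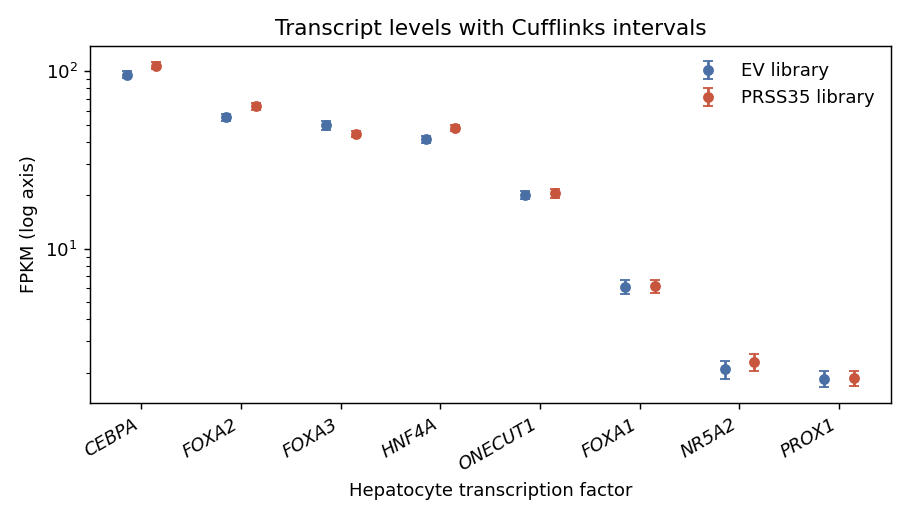
FPKM of the 8 hepatocyte transcription factors on a log axis in the EV (blue) and PRSS35 (red) libraries, ordered by the EV value, with bars from the lower to the upper deposited bound. Levels run from 95.7 FPKM for CEBPA to 1.86 for PROX1 in EV, and FOXA3 is the gene whose red point lies below its blue one.

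The most and the least abundant factor differed 51.6-fold in FPKM in EV and 57.5-fold in PRSS35. Ranked by FPKM among the 11118 expressed genes, CEBPA was at 1579 in EV and 1451 in PRSS35, HNF4A at 2725 and 2541, and PROX1 at 9604 and 9735. The libraries shared the order of the 8 factors except at one place. In EV, FOXA3 lay 1.21-fold above HNF4A with separate bounds, whereas in PRSS35 HNF4A lay 1.08-fold above FOXA3 and the bounds overlapped. The other neighbours in the order whose bounds overlapped were FOXA2 and FOXA3 in EV, and NR5A2 and PROX1 in both libraries. Within the FOXA family, FOXA2 gave 49.6% of the summed FPKM in EV and 55.7% in PRSS35, and FOXA3 gave 44.9% and 38.8%. FOXA2 was thus 1.11-fold above FOXA3 in EV and 1.43-fold above it in PRSS35, while the family summed to 110.7 and 113.6 FPKM.

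The comparison of libraries addresses what overexpression of PRSS35, a secreted protein annotated as a pseudo serine protease, leaves in the transcripts of liver cancer cells. The study itself reports PRSS35 to be an active protease once cleaved by proprotein convertases. Changes are on the scale log2((FPKM in PRSS35 + 1) / (FPKM in EV + 1)), which makes changes of low genes such as PROX1 and NR5A2 look smaller than they are. On this scale, 0 of the 8 factors were higher by 2-fold or more and 0 were lower, beside 2.73% of the 11118 expressed genes higher and 2.48% lower. At 1.5-fold the factors also gave 0 in each direction, beside 5.23% of expressed genes higher and 4.27% lower. The median change over the 8 factors was 0.06, and that of all expressed genes was 0.06.

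HNF4A and FOXA2 had the highest log2 changes, 0.21 (0.13 to 0.28) and 0.20 (0.11 to 0.30), and CEBPA followed with 0.16 (0.07 to 0.26), where parentheses give the interval that combines the bounds of both libraries. In FPKM, HNF4A was 1.16-fold, FOXA2 1.15-fold and CEBPA 1.12-fold higher in PRSS35. FOXA3 had a log2 change of -0.17 (-0.27 to -0.07), with the EV value 1.13-fold the higher. The remaining factors had 0.09 for NR5A2, 0.03 for ONECUT1 and 0.01 each for FOXA1 and PROX1, and all of these intervals included 0. Scaling each library to its summed FPKM moved the median of all expressed genes to 0.68 and gave FOXA3 a value of 0.53, above 0 but still under that median. Under upper quartile scaling the interval of CEBPA, at 0.0947, included 0.

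Bounds that did not overlap were common in this pair of libraries, since 25.1% of expressed genes were higher in PRSS35 with separate bounds and 15.5% were lower. Against this background, 3 of the 8 factors (37.5%) were higher and 1 (12.5%) was lower, and for 4 the bounds overlapped. Each gene among 8 makes up 12.5%, so a single gene moves these shares by at least as much as they differ from the background.

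The way a locus was defined differed among the factors. Some loci carry an identifier of an assembly from the reads in place of the annotated one, and this could differ between the libraries. HNF4A, FOXA2, ONECUT1, CEBPA and NR5A2 were assembled in both libraries, FOXA1 and PROX1 kept the annotation in both, and FOXA3 was assembled in EV alone. Among 1048 expressed genes detected in each library and assembled in EV alone, as FOXA3 was, 20.4% were lower in PRSS35 with separate bounds and the median log2 change was 0.02. Of the 2365 that kept the annotation in both, 6.55% were lower with separate bounds and the median was 0.08. Of the 6374 assembled in both, the class of 5 of the factors, 18.5% were lower and 24.3% higher, and of the 1116 assembled in PRSS35 alone 5.47% were lower and 37.9% higher. The part of assembly in the value of FOXA3 was not tested.

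The factors differ in gene structure. In GENCODE 44 on GRCh37, the assembly that hg19 is, the canonical transcript of CEBPA has 1 exon, those of FOXA1, FOXA2, FOXA3 and ONECUT1 have 2, that of PROX1 has 5, that of NR5A2 has 8 and that of HNF4A has 10. In the hg19 coordinates of the files, CEBPA is the shortest locus of the 8, on chromosome 19 from 33790840 to 33793470, and NR5A2 the longest, on chromosome 1 from 199996730 to 200146550. HNF4A spans chromosome 20 from 42984441 to 43061485. FOXA2 lies on the same chromosome from 22561642 to 22566101, and FOXA3 on chromosome 19 from 46367518 to 46377055. FOXA1 lies on chromosome 14 from 38058757 to 38064325, and PROX1 on chromosome 1 from 214161278 to 214214847. ONECUT1, on chromosome 15 from 53049160, ends at 53082478 in the EV table and at 53082673 in the PRSS35 table, the only factor of the 8 whose ends differed. HNF4A, FOXA2, ONECUT1, PROX1 and NR5A2 have 2 groups of starts each in the files, which the FPKM of a gene adds together.

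Family relatives of the factors recognise similar DNA. Of 9 relatives, 4 were expressed, 2 higher and 1 lower with separate bounds (beside 25.1% and 15.5% of all expressed genes), with a median log2 change of 0.16. CEBPB, the acute-phase relative of CEBPA, had 93.8 FPKM in EV (89.2 to 98.5) and 108.0 in PRSS35 (102.8 to 113.2), close to CEBPA in both libraries. CEBPD, a stress-induced member, had 19.5 FPKM in EV (17.9 to 21.1) and 26.1 in PRSS35 (24.2 to 27.9), a log2 change of 0.40 at a locus that kept its annotation in both. CEBPG had 8.71 and 9.59 FPKM with overlapping bounds. CEBPA, CEBPB, CEBPD and CEBPG together summed to 217.7 FPKM in EV and 251.0 in PRSS35, of which CEBPA made up 43.9% and 42.8%.

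ONECUT1 gave most of the transcript of its family, 78.8% in EV and 83.2% in PRSS35. ONECUT3, a relative with the same cut domain, had 5.08 FPKM in EV (4.34 to 5.82) and 2.89 in PRSS35 (2.34 to 3.45). Its log2 change of -0.64 was the lowest among the expressed relatives and other liver factors, at a locus annotated in both libraries. ONECUT2 had 0.297 FPKM in EV (0.248 to 0.346) and 1.24 in PRSS35 (0.841 to 1.65), and its locus was assembled in PRSS35 alone. With a mean under 1 FPKM it was not among the expressed genes. HNF4G, the relative of HNF4A, had 0.891 and 0.946 FPKM. NR5A1 was near 0, with 0.0226 and 0.0563 FPKM, and CEBPE and PROX2 were listed at 0 in both libraries.

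The wider list of 29 liver transcription factors holds 6 of these relatives and had 19 expressed members. By 2-fold, 0 were higher and 0 lower, while 6 were higher and 2 lower with separate bounds, beside 25.1% and 15.5% of all expressed genes, and 11 overlapped. The median log2 change was 0.11, beside 0.06 over all expressed genes. HHEX, a homeodomain factor of the early liver bud, had 28.4 FPKM in EV (26.8 to 29.9) and 34.4 in PRSS35 (32.6 to 36.1).

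SOX9, a factor of biliary and progenitor cells, had 2.73 FPKM in EV (2.42 to 3.04) and 3.74 in PRSS35 (3.38 to 4.10), and like HHEX it kept its annotation in both libraries. ZHX2, a repressor of fetal liver genes after birth, had 4.91 FPKM in EV (4.52 to 5.31) and 9.14 in PRSS35 (8.42 to 9.86), a log2 change of 0.78 at a locus assembled in PRSS35 alone. KLF15, a fasting-responsive zinc finger factor, had 3.38 FPKM in EV (2.91 to 3.85) and 5.54 in PRSS35 (4.98 to 6.09), a log2 change of 0.58 at a locus assembled in EV alone. These 3 genes and CEBPB, CEBPD and HHEX are the ones that were higher with separate bounds, and ONECUT3 was among those that were lower.

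GATA4, TBX3 and NR0B2 lay between 0.01 and 0.09 in log2 change with overlapping bounds. The loci of ATF5 and RXRA, each joined with a microRNA gene, overlapped as well, with 74.5 and 76.2 FPKM for the first and 19.4 and 19.1 for the other. Several factors of the adult hepatocyte were at or near 0. NR1H4, the bile acid receptor gene, and NR1I3, the constitutive androstane receptor gene, were listed at 0 in both libraries. NR1I2, the pregnane X receptor gene, had 0.0129 and 0 FPKM, and GATA6 0 and 0.00907. NFIA had 0.178 and 0.156 FPKM and NFIB 0.177 and 0.177.

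**Figure D2:**
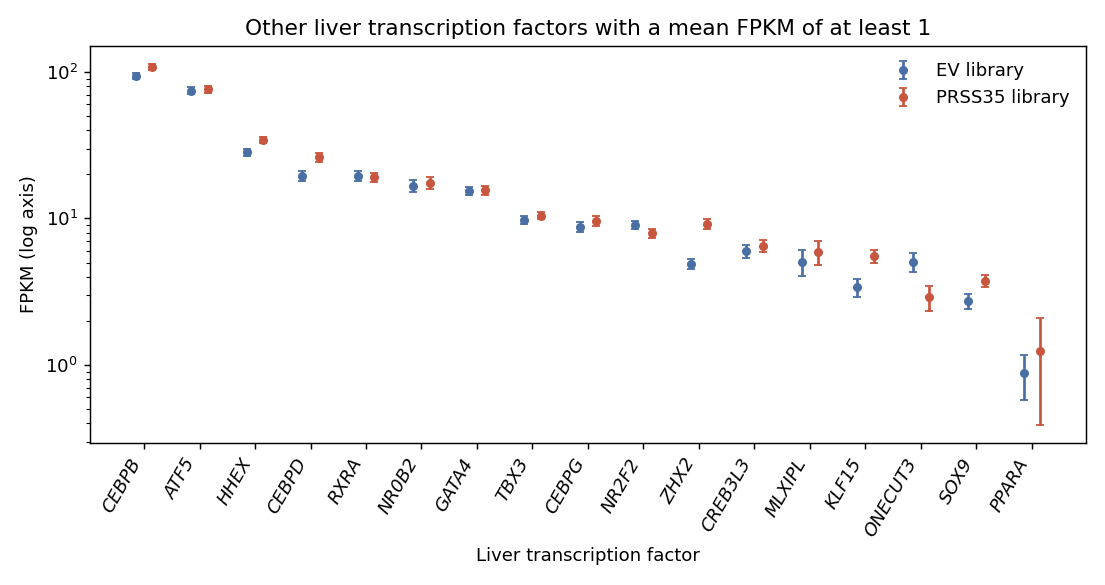
FPKM of expressed genes among the other liver transcription factors, for those reported by name, on a log axis in EV (blue) and PRSS35 (red), with bars from the lower to the upper deposited bound. CEBPB and ATF5 are the most abundant, ONECUT3 is lower in PRSS35, and ZHX2 is higher.

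Transcription factors act through cofactors, of which 12 of 15 were expressed, 2 higher and 1 lower with separate bounds (beside 25.1% and 15.5% of all expressed genes), with a median log2 change of 0.06. HDAC3, the histone deacetylase of nuclear receptor corepressor complexes, had 62.4 FPKM in EV (59.0 to 65.8) and 73.1 in PRSS35 (69.3 to 76.9). NCOA3, a coactivator of nuclear receptors, had 2.63 FPKM in EV (2.40 to 2.86) and 3.28 in PRSS35 (3.03 to 3.53). KDM1A, a histone demethylase, had 35.0 and 38.2 FPKM with overlapping bounds. PPARGC1A, the fasting-induced coactivator of HNF4A, was near 0, with 0.0894 and 0.0578 FPKM.

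The target lists of the factors overlap: SERPINA1 stands in 4 of them. They were chosen with earlier results of these data known, so their shares beside those of all expressed genes are descriptive only. Of 16 HNF4A targets, 12 were expressed, 6 higher and 3 lower with separate bounds, beside 25.1% and 15.5% of all expressed genes, with a median log2 change of 0.16. SERPINA1, the alpha-1 antitrypsin gene, had 2528 FPKM in EV (2423 to 2633) and 4239 in PRSS35 (4113 to 4365). TF, the transferrin gene, had 224.2 FPKM in EV (214.3 to 234.0) and 348.5 in PRSS35 (333.5 to 363.5). G6PC, the enzyme that releases free glucose, had 17.6 FPKM in EV (16.5 to 18.8) and 27.0 in PRSS35 (25.5 to 28.6). All 3 loci were assembled in both libraries.

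PCK1, a gluconeogenic enzyme gene, had 7.23 FPKM in EV (6.61 to 7.86) and 9.56 in PRSS35 (8.84 to 10.3). F10, the coagulation factor X gene, had 4.20 and 6.32 FPKM, and APOB, the main protein of VLDL and LDL, had 18.0 and 20.7, both with separate bounds. The HDL protein genes APOA1 and APOA2 were among the lower members. APOA1 had 576.2 FPKM in EV (550.0 to 602.4) and 493.6 in PRSS35 (470.9 to 516.4), and APOA2 had 218.1 FPKM in EV (203.1 to 233.0) and 178.5 in PRSS35 (165.3 to 191.6). APOC3, with 83.1 and 82.1 FPKM, TTR and F7 overlapped.

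Among the 10 FOXA targets, 9 were expressed, 7 of them higher and 0 lower with separate bounds, beside 25.1% and 15.5% of all expressed genes. Their median log2 change was 0.36, against 0.06 over all expressed genes, and 2 were higher by 2-fold or more, beside 2.73% of expressed genes. IGFBP1, a secreted binding protein of insulin-like growth factors, had 410.8 FPKM in EV (404.5 to 417.1) and 841.1 in PRSS35 (832.2 to 850.0) at a locus annotated in both. SHBG, the sex hormone carrier gene, was listed at 0 in EV and had 4.88 FPKM in PRSS35, at a locus assembled in both. Because reads built that locus in EV too, the listed 0 does not show absence. SHBG counts as expressed through the PRSS35 library only, and its EV bounds are 0 to 0. Its places among the 9, the 7 and the 2, and its part in the median, therefore rest on these values. At lower levels, ALB, the albumin gene, had 4.05 FPKM in EV (3.53 to 4.57) and 5.21 in PRSS35 (4.62 to 5.79), and CPS1, the entry enzyme of the urea cycle, had 4.18 FPKM in EV (3.82 to 4.54) and 5.33 in PRSS35 (4.91 to 5.75). AFP, the fetal relative of albumin, had 18.9 and 17.7 FPKM with overlapping bounds.

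The 8 CEBPA targets had 5 expressed members, ALB, PCK1, G6PC, CPS1 and SERPINA1, which were all higher in PRSS35 with separate bounds, beside 25.1% of all expressed genes. Their median log2 change was 0.36, against 0.06 over all expressed genes. Every one of these 5 is on the FOXA list too, so the lists do not count separate genes. As both lists were chosen with earlier results known, these shares describe the listed genes and test nothing. Among them ALB, PCK1 and CPS1 kept their annotation in both libraries. GYS2 and HP, also CEBPA targets, were listed at 0 in both libraries.

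Of 9 NR5A2 targets, 5 were listed at 0 in both libraries, among them CYP7A1 and CYP8B1, enzymes of bile acid synthesis, and ABCG5 and ABCG8, which export sterols. The ABCG5 locus was assembled from reads in both libraries, as were those of NR1I3 and PROX2. The NR1H4 locus was assembled in PRSS35 alone. A listed 0 therefore does not show that transcript was absent. The 3 expressed members had a median log2 change of 0.06. SCARB1, the HDL receptor gene, had 66.6 FPKM in EV (63.8 to 69.4) and 78.0 in PRSS35 (74.9 to 81.1), APOA1 was lower, and NR0B2, the corepressor SHP, had 16.8 and 17.6 FPKM with overlapping bounds. Of the 8 ONECUT1 targets, 5 were expressed, with a median log2 change of 0.20. With separate bounds, 3 of them (HNF4A, FOXA2 and SERPINA1) were higher and 0 lower, beside 25.1% and 15.5% of all expressed genes. HNF4A and FOXA2 are among the 8 factors, and SERPINA1 is also on the HNF4A, FOXA and CEBPA lists, so these are not further genes.

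**Figure D3:**
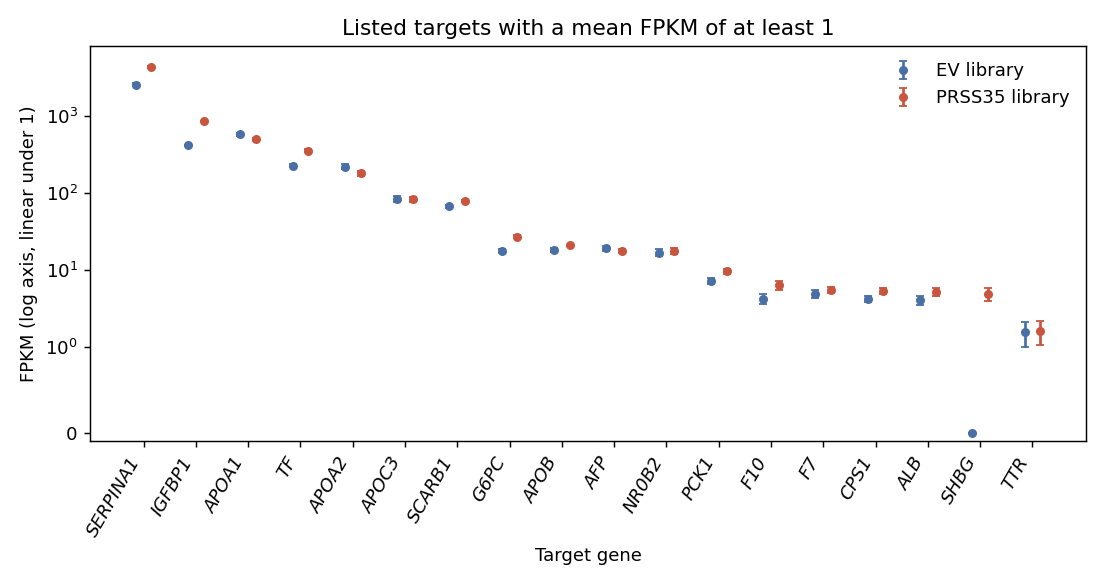
FPKM of the expressed target genes reported by name in EV (blue) and PRSS35 (red), with bars from the lower to the upper deposited bound, on a log axis that is linear under 1. Levels run from SERPINA1 at 2528 FPKM in EV down to TTR at 1.56, and SHBG is at 0 in EV.

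Levels of the targets were more unequal than those of the factors. SERPINA1 stood 624.2-fold above ALB in FPKM in EV and 814.3-fold in PRSS35. Over the 15 expressed hepatocyte markers the median log2 change was 0.03, beside 0.06 over all expressed genes, and 7 were higher and 2 lower with separate bounds, where the background is 25.1% and 15.5%. AMBP, the alpha-1-microglobulin precursor gene, had 2052 and 2032 FPKM with overlapping bounds. RBP4, the retinol carrier gene, had 565.4 FPKM in EV (539.8 to 591.0) and 635.9 in PRSS35 (607.3 to 664.4). AHSG, the fetuin-A gene, had 16.7 and 25.5 FPKM and APOH, the beta-2-glycoprotein gene, 22.7 and 27.8, both with separate bounds. TTR, the transthyretin gene, had 1.56 and 1.61 FPKM, so some defining hepatocyte genes were low while others were among the most abundant.

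The genes whose values in the libraries lay closest to those of HNF4A, by the Euclidean distance of log2(FPKM + 1) over 2 libraries, were DAXX with 41.2 and 47.3 FPKM, POLE3 with 41.0 and 48.2 and TRIP10 with 41.4 and 47.1. With 2 libraries, this likeness covers a level and a difference only. Within the other liver factors, the nearest to CEBPA was CEBPB at a distance of 0.0291, the nearest to FOXA1 was CREB3L3 at 0.072 and the nearest to ONECUT1 was RXRA at 0.107. For FOXA2 it was ATF5 at 0.508, for NR5A2 SOX9 at 0.588 and for PROX1 PPARA at 0.705.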

How the data were processed

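Per the methods and the submitters' processing notes, the authors aligned reads to hg19 with TopHat2 (2.1.0), used Cufflinks (Cuffdiff 2.2.1 in the notes) and deposited FPKM per locus with lower and upper bounds. Annotation release and options are not given in the sources used here. The library kit named does not mark strand. The files used hold no counts, so no count model was fitted, and each condition had 1 library.

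Loci outside the main chromosomes were dropped, rows with the same name were summed, and a joined locus counted for each of its names. Changes used a pseudocount of 1 FPKM, and a mean of 1 FPKM or more counted as expressed. The interval of a log2 change combines, in quadrature, how far the upper bounds of both libraries lie above their FPKM. With this width taken as 2 standard errors, the bounds give the fragments implied at low annotated loci, and the FPKM of a single fragment in PRSS35 over that in EV had a median of 0.999 over 1322 of them. This is an inference from the bounds that single genes need not follow, and the FPKM of all loci summed to 2469030 in EV and 1508530 in PRSS35.

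The members and gene lists were chosen with earlier results of these data known. The genes named are the 8 factors, PRSS35, list genes that differed by 2-fold or had separate bounds, the 4 most abundant of each list, the nearest patterns, and neighbouring loci. Others, such as genes at 0, were chosen after their values were seen. Some genes of the lists enter the counts and medians but are not reported here by name. The log2 change and the 2-fold call were tested on simulated data. The simulation planted changes larger than 2-fold and used counting noise only, with no spread between cultures. Changes as small as those of the 8 factors were therefore not checked. The bounds, intervals, locus classes, list medians and motif search were not part of that test. Alternatives were pseudocounts of 0.1 and 5 FPKM, other scalings, the highest row per name, joined loci left out, a 1.5-fold threshold and other filters. Promoter windows came from RefSeq (GRCh38.p14). Python 3.11.15, numpy 2.4.6, pandas 2.3.3 and matplotlib 3.10.9 were used.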

Additional observations from a re-analysis of the deposited data

How the results depend on the processing

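The count of factors past the fold threshold was 0 in each direction under every alternative run for it. Not every alternative counted all 8 factors: 6 had a mean of 5 FPKM or more, and 2, FOXA1 and PROX1, were annotated in both libraries. When each library was scaled to its summed FPKM, the median over all expressed genes moved from 0.06 to 0.68, that of the factors to 0.67, of the other liver factors to 0.74 and of the hepatocyte markers to 0.70. FOXA3 then had a log2 change of 0.53, PROX1 0.47 and HNF4A 0.90, and 1273 genes were higher and 180 lower by 2-fold. No other setting moved a factor by more than its interval, but under upper quartile scaling CEBPA was at 0.0947 and its interval, which reaches 0.0957 to either side, included 0. Centring on the median and upper quartile scaling changed the sign of 3 factors, ONECUT1, FOXA1 and PROX1. Of all expressed genes, 303 were higher and 276 lower by 2-fold. These became 192 and 162 at a pseudocount of 5 FPKM, 581 and 475 at 1.5-fold, 201 and 163 for genes detected in each library, and 7 and 8 for those annotated in both. Without joined loci 183 genes were higher, and with a mean of 5 FPKM or more 169 were lower. The restricted sets hold fewer genes: 10903 detected in each library, 2365 annotated in both, 9682 without joined loci and 7390 at 5 FPKM or more. The 7 and 8 are also a far smaller share of 2365 than 303 and 276 are of 11118, which is 2.73% and 2.48%. The cause was not tested. Keeping alternate haplotypes, chosen after seeing the data, left the values of the factors as they were. No paired analysis was possible because there is a single library per condition, and for the same reason no replicate could be left out. The condition and the culture cannot be told apart.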

Other observations

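The loci beside the factors add a further set of values. PROX1-AS1, a noncoding gene 1.78 kb from PROX1 in the files, had 0.214 FPKM in EV (0.120 to 0.307) and 0.549 in PRSS35 (0.398 to 0.700), 2.57-fold higher in PRSS35 with separate bounds, while PROX1 had 1.86 and 1.87. Its bounds correspond to about 21.0 and 52.8 fragments, and the locus kept its annotation in both libraries. With a mean under 1 FPKM it was not among the expressed genes, and its log2 change with the pseudocount was 0.35. LINC00261, 2.36 kb from FOXA2, had 5.81 FPKM in EV (0 to 11.9) and 5.84 in PRSS35 (5.37 to 6.31), so the EV value is poorly set. HNF4A-AS1, which lies within HNF4A, and CEBPA-AS1, 0.292 kb from CEBPA, were listed at 0 in both libraries. Reads from any sequence transcribed in both HNF4A and its antisense gene cannot be assigned to either by strand, which the library kit does not mark.

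On the sides of FOXA3, SYMPK, 0.969 kb away, had 43.8 and 40.7 FPKM with overlapping bounds. IRF2BP1, 9.81 kb away on the other side, had 114.9 and 94.2 FPKM with separate bounds, a log2 change of -0.28 at a locus annotated in both libraries. TTC6, 0.078 kb from FOXA1, was listed at 0 in EV and had 0.290 FPKM in PRSS35. Its locus was assembled in both libraries, so the listed 0 does not show absence. SMYD2, the next named locus above PROX1, had 19.0 and 20.0 FPKM. The remaining nearest loci were under 1 FPKM in both libraries: R3HDML, LINC01430 and MIR3646 at HNF4A, MIPOL1 at FOXA1, LINC01384 at FOXA2, FAM214A and WDR72 at ONECUT1, SLC7A10 at CEBPA, and LINC01221 and LINC00862 at NR5A2.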
